A study of Arabidopsis thaliana with 4 samples.

Results

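Genes called EMB (embryo defective) or MEE (maternal effect embryo arrest) with a number were named for mutants whose seeds hold arrested embryos. Of 205 such genes in the gene table of assembly TAIR10.1, 160 were EMB and 45 were MEE genes. The members were taken as probe sets annotated to 1 gene only whose symbol is EMB or MEE followed by a number, and this rule found 1 gene, EMB2786 (AT3G17300), of 13356 genes named alone by a probe set. For the other 204 the annotation used here gives no probe set of their own, and they are not analysed here. The values below therefore describe 1 gene and do not describe EMB and MEE genes as a class.

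Whole seedlings of Arabidopsis thaliana (ecotype Columbia) were profiled on Affymetrix ATH1 arrays. All carried the pER8-LEC1 transgene, in which an estradiol-activated factor switches on LEAFY COTYLEDON1 (LEC1). In the LEC1-induced group, seeds germinated and grew for 4 days on 10 µM (0.01 mM) estradiol, and in the control group they did so on 0.1% DMSO, with 2 biological replicates each. The sample labels used here do not give the DMSO content of the estradiol medium, so a matched solvent cannot be assumed. None of the 4 arrays comes from estradiol-grown plants without pER8-LEC1. The effects of LEC1, of estradiol itself and of any difference in solvent therefore cannot be told apart. Whether the seedlings came from 1 transgenic line is not given in the sources used here, and the level of LEC1 itself is not analysed here.

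LEC1 is a B subunit of a nuclear factor Y (NF-Y) complex that acts with other seed regulators to drive embryo development and seed filling. EMB and MEE genes are a different kind of gene. They are defined by what their loss does to the embryo and not by when they are expressed, and many encode basic functions, such as protein synthesis in plastids, DNA replication and RNA processing, that vegetative cells use too. The molecular role of EMB2786 is not given by the tables used here, which list it as protein coding with 3 RefSeq transcripts. It overlaps its neighbour DRM3 by 70 bases in that table, and whether the probe set lies in the shared stretch was not tested.

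The arrays differed in overall brightness, with median signals of 39.4 and 22.3 on the induced arrays and 20.0 and 15.5 on the control arrays. Log2 signals were quantile normalized between arrays for that reason. The marker lists below were chosen with earlier results of these data known, so their counts are no independent support. The seed maturation markers, PAP85, OLEO3, AT2G28490, AT3G01570 and EEL, rose in induced seedlings in 5 of 5 cases. Of all probe sets, 2.83% were called higher. PAP85, AT2G28490, AT3G01570 and EEL were under the 40th percentile of both control arrays. They passed the filter on dim signals, described below, only through the induced arrays. The 5 of 5 therefore cannot be read against that share. The summed normalized signal of these 5 markers was 21502 and 20003 in induced seedlings, against 59.9 and 67.7 in controls. In the control sums OLEO3 alone gave 35.5 and 44.6. Of 6 green tissue genes 4 fell, where 2.91% of all probe sets were called lower. LHCB4.2 and LHCB4.3 did not pass. LHCB4.3 lay the other way, at 367.0 and 518.8 in induced seedlings, against 157.6 and 258.6 in controls (limma adjusted p = 0.125). The summed signal of the 6, mostly that of LHCB4.1, PORB and LHCB4.2, was 3176 and 4002 in induced seedlings, against 6929 and 7689 in controls. Of 7 listed root genes, the annotation names EXPA7, an expansin of root hairs, alone for a probe set. It had 24.0 and 49.5 in induced seedlings, against 96.3 and 68.3 in controls, and did not pass (limma adjusted p = 0.142). What part these markers have in the values of EMB2786 was not tested. In whole seedlings, fewer cells of a type and less RNA per cell cannot be told apart.

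EMB2786 was measured well above the dimmest signals in both groups and did not pass the test between them. As deposited, its signal was 134.6 and 79.5 on the induced arrays, against 84.9 and 80.0 on the control arrays. Induced replicate 1 stood above the other arrays, which were within a few units of each other, and the groups overlapped. Induced replicate 1 was also the array with the highest median. Expressed as multiples of each array's own median, EMB2786 stood at 3.42 and 3.57 in induced seedlings, against 4.25 and 5.16 in controls. On this scale both induced arrays lay below both controls. The share of all probe sets with that pattern on this scale was not counted, so it cannot be called particular to EMB2786.

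Its place among the probe sets of its own array, which no scaling of a whole array can change, was the 77.5th and 78.4th percentile in induced seedlings. In control seedlings it was the 79.2nd and 82.5th percentile. EMB2786 was thus in about the same upper part of the signal range on all 4 arrays. Averaged over the arrays after normalization, it was brighter than 69.1% of the 14433 probe sets that passed the filter on dim signals. The lower limit for such a signal, called the dim limit here, was 13.9 after normalization, and EMB2786 was above it on every array.

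**Figure D1:**
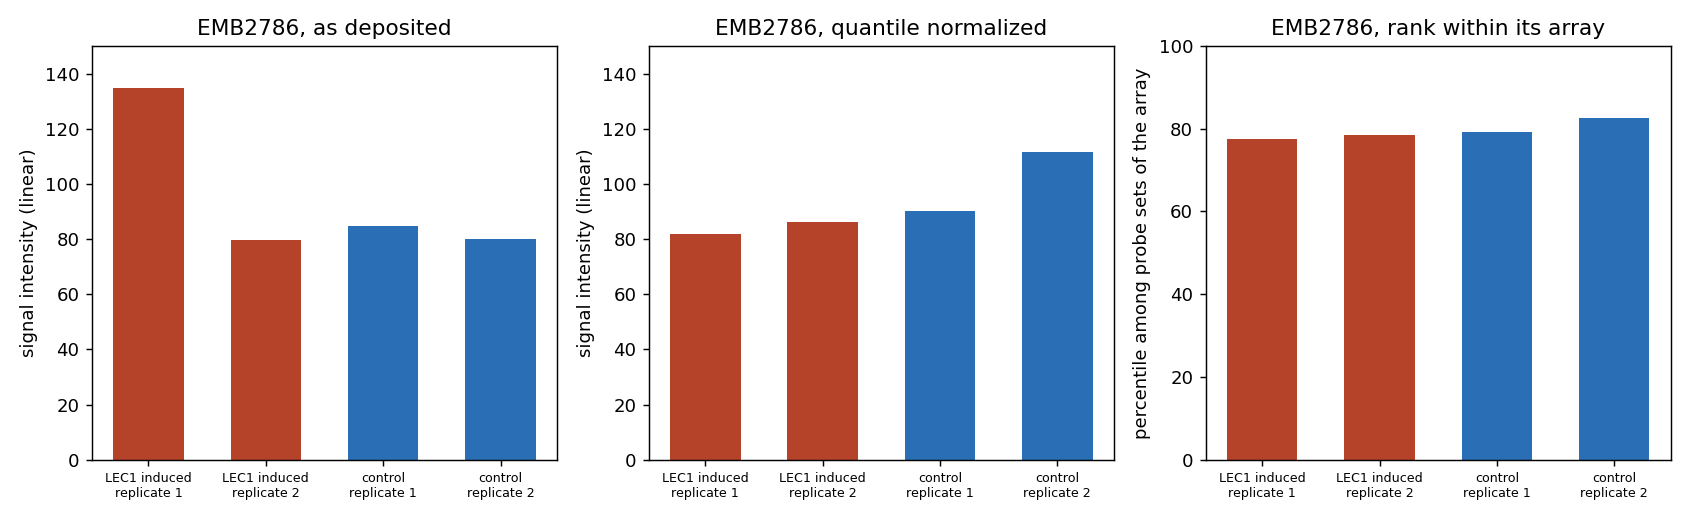
Signal of EMB2786 on each array as deposited (left), after quantile normalization (middle), and as a percentile among the probe sets of the array (right), with LEC1-induced arrays in red and control arrays in blue and 1 bar per array. The deposited bar of induced replicate 1, at 134.6, is the tallest of its panel, while after normalization both induced bars, at 81.7 and 86.1, are below both control bars, at 90.2 and 111.7.

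After quantile normalization the signal of EMB2786 was 81.7 and 86.1 in induced seedlings, against 90.2 and 111.7 in controls. The groups did not overlap, with the induced arrays lower, a pattern that 29.0% of all 14433 probe sets showed in that direction. A further 29.3% had both induced arrays higher, so the groups did not overlap in 58.3% of all probe sets. The mean log2 signal was 6.39 ± 0.05 in induced seedlings and 6.65 ± 0.22 in controls (SD, n = 2 each). The log2 change, induced minus control, was -0.26 ± 0.31 SE, or 0.836 times the control level, and did not pass (limma adjusted p = 0.628). Within replicate 1 the difference was -0.14 and within replicate 2 it was -0.37 on the log2 scale.

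Members called higher numbered 0 of 1 and members called lower 0 of 1, where 5.74% of all probe sets were called, 2.83% higher and 2.91% lower. At an unadjusted limma p under 0.05 the count was also 0 of 1, where 26.5% of all probe sets were under that value. With 1 member, these counts cannot be read against that background. The 95% interval of the log2 change ran from -1.01 to 0.49. In linear terms this is from 0.496 to 1.41 times the control level, so the arrays leave room for a level about as low as the lower bound or as high as the upper one. At its standard error a log2 change of 1.46 in either direction, which is 2.76-fold, would have been needed for a call. Its standard error of 0.31 was below the median of all probe sets, 0.38, and 16.1% of them had a smaller one. In size, the change of EMB2786 was larger than those of 23.8% of all probe sets.

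The sign of the difference depended on whether the arrays were brought to 1 level. Without further normalization the log2 change of EMB2786 was 0.33 (limma adjusted p = 0.736). In that fit the median of all probe sets was shifted by 0.62. With each array centred on its median the change was -0.42 (limma adjusted p = 0.407). The median change of all probe sets tested was -0.14 in that fit. Relative to the median of all probe sets, the change was -0.29 in both of these fits and -0.26 after quantile normalization.

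**Figure D2:**
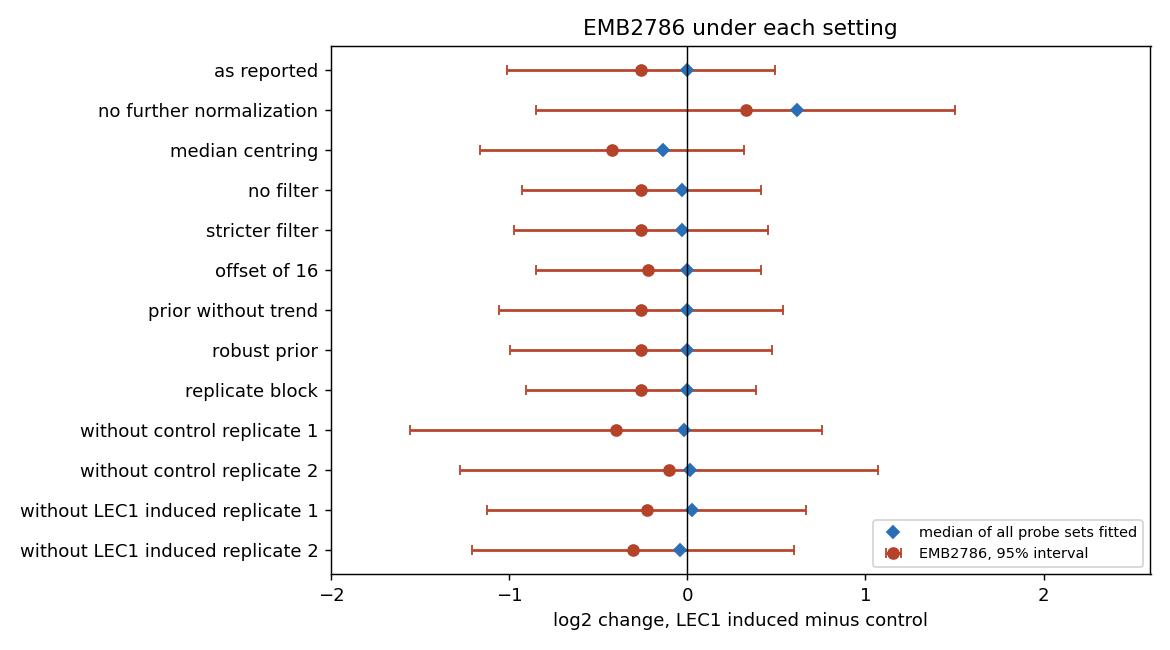
Log2 change of EMB2786, LEC1 induced minus control, with its 95% limma interval (red) and the median log2 change of all probe sets fitted (blue diamonds), for the reported setting and 12 alternatives down the page. Every interval spans 0, the point for no further normalization is the only one above 0, at 0.33, and in every setting EMB2786 lies left of the median of all probe sets.

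On chromosome 3 the nearest genes that the annotation names alone for a probe set were AT3G17280 on one side and AT3G17340 on the other. AT3G17280 was too dim for the test, with normalized signals of 2.14 and 1.16 in induced seedlings, against 0.767 and 3.84 in controls. AT3G17340 lies beyond DRM3, FOA1 and ECT6, which are unnamed in the annotation and not analysed here. It had 10.2 and 6.92 in induced seedlings, against 17.0 and 17.7 in controls, and did not pass (limma adjusted p = 0.317). EMB2786 was thus the only one of these 3 genes above the dim limit on all 4 arrays.

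Another 2 genes carry an EMB number among their synonyms but go by other symbols, so the rule does not take them. GR (AT3G54660, also EMB2360) encodes the glutathione reductase of plastids and mitochondria, which keeps glutathione reduced. Its normalized signal was 185.5 and 232.9 in induced seedlings, against 295.4 and 307.1 in controls. Both induced arrays were lower, as in 29.0% of all probe sets. The log2 change of -0.54 ± 0.30 SE did not pass (limma adjusted p = 0.304). LIS (AT2G41500, LACHESIS, also EMB2776) encodes a homologue of a yeast splicing factor and is known for restricting egg cell fate in the embryo sac. Its normalized signal was 61.2 and 110.2 in induced seedlings, against 68.3 and 78.8 in controls. These groups overlapped, and the log2 change was 0.16 ± 0.39 SE (limma adjusted p = 0.816).

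Other families named for mutants of the same early stages were hardly represented in the annotation. EDA (embryo sac development arrest), UNE (unfertilized embryo sac), OVA (ovule abortion) and PDE (pigment defective) genes, numbering 27, 15, 6 and 16 in the gene table, have 0 probe sets of their own in the annotation and are not analysed here. Of 6 TTN genes, named for the titan mutants with giant endosperm nuclei, TTN9 has a probe set of its own in the annotation. Its normalized signal was 17.7 and 18.1 in induced seedlings, against 5.37 and 20.3 in controls. Control replicate 1 was under the dim limit, the groups overlapped, and TTN9 did not pass (limma adjusted p = 0.539).

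Among 36 listed symbols of embryo genes with names of their own, 3 have a probe set of their own in the annotation. Of these, 0 were called, where 5.74% of all probe sets were. The symbol CCT2, also listed, belongs in the annotation to an enzyme of phosphatidylcholine synthesis and was left out. KEU, a Sec1 protein needed to build the new wall in dividing cells, had normalized signals of 111.4 and 92.2 in induced seedlings, against 51.3 and 55.1 in controls. Both induced arrays were higher, as in 29.3% of all probe sets. The log2 change of 0.93 ± 0.31 SE did not pass (limma adjusted p = 0.123). FAC1, an AMP deaminase needed for the zygote to become an embryo, had 138.5 and 271.5 in induced seedlings, against 242.2 and 321.1 in controls (limma adjusted p = 0.450). The groups overlapped for FAC1, whose induced arrays were far apart. SEC, an O-linked N-acetylglucosamine transferase, had 92.1 and 102.0 in induced seedlings, against 109.0 and 107.8 in controls (limma adjusted p = 0.763). Both induced arrays were lower for SEC, as in 29.0% of all probe sets.

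Of 18 listed genes of dividing cells, 2 have a probe set of their own in the annotation. Of these, 0 were called, where 5.74% of all probe sets were. PRL (PROLIFERA, MCM7), a subunit of the helicase that unwinds DNA for replication, had normalized signals of 58.0 and 90.2 in induced seedlings, against 100.3 and 104.1 in controls. Both induced arrays were lower, as in 29.0% of all probe sets. The log2 change was -0.50 ± 0.35 SE (limma adjusted p = 0.401). This was -0.83 without induced replicate 2 and -0.18 without induced replicate 1. HTR12, the histone H3 of centromeres, had 17.7 and 15.1 in induced seedlings, against 14.4 and 19.7 in controls, and the groups overlapped (limma adjusted p = 0.962). These signals were not far above the dim limit of 13.9 on any array, so they say little about a change.

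Over these 8 related genes together, 0 passed, where 5.74% of all probe sets did. With 8 genes, this count cannot be read against that background. At an unadjusted limma p under 0.05 the count was 1 of 8, KEU, where 26.5% of all probe sets were under that value. Their median log2 change was -0.10, with a range from -0.54 to 0.93, and the median over all probe sets was 0.00. The change of EMB2786, at -0.26, lies inside that range. Whether EMB2786 differs from these genes in its response was not tested.

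**Figure D3:**
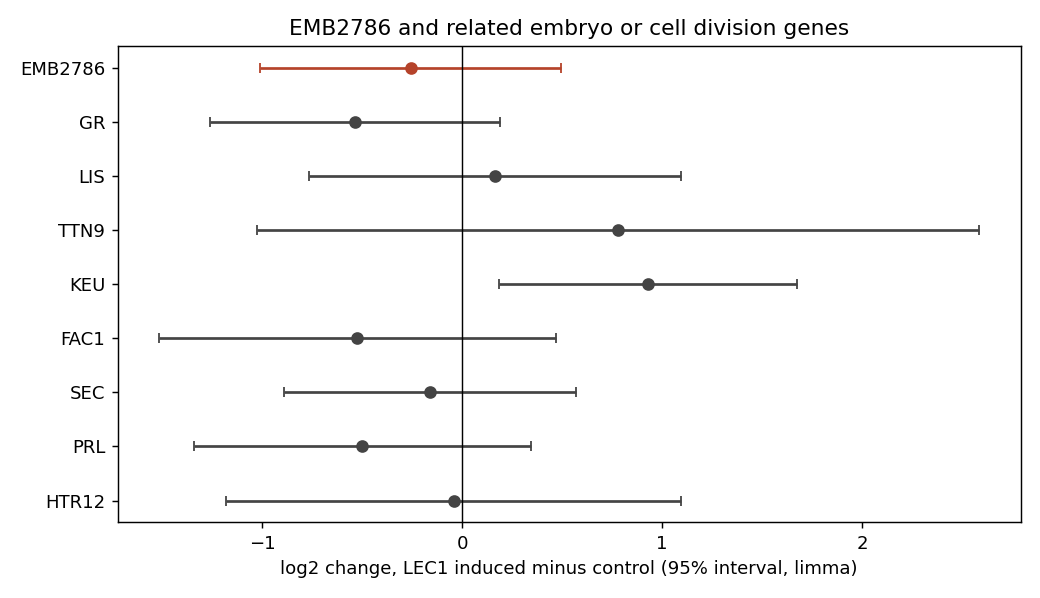
Log2 change, LEC1 induced minus control, with 95% limma intervals, for EMB2786 (red, top) and the 8 related genes (grey). The interval of KEU, around 0.93, is the only one of the 9 that does not reach 0, and KEU did not pass after adjustment over all probe sets.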

How the data were processed

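The authors deposited a linear signal intensity for each probe set on each array. The submitters' processing notes name MAS5, and neither the scaling target nor detection calls are stated in the sources used here. Of 22810 probe sets, 64 array controls were left out. Signals were floored at 0.1 (8 values lay under it), turned to log2 and quantile normalized. Probe sets passed the filter on dim signals when at least 2 arrays had them over the array's own 40th percentile, as 14433 of 22746 did. The comparison used limma 3.58.1 under R 4.3.3, two-sided, with a trended eBayes prior (2 residual plus 4.39 prior degrees of freedom). P-values were adjusted by Benjamini-Hochberg over those 14433, with a threshold of 0.05. In simulated data with 200 of 14433 probe sets changed, the fit called 92% of those changed by 2 on the log2 scale and 100% of those changed by 4. Of its calls, 1.54% were of unchanged probe sets. The simulated spread was set below the one estimated from these arrays. It did not depend on brightness, and no deviations were shared between arrays. These shares therefore do not give the power or the false calls of the fit on the real arrays. Only 2 arrays per group limit the precision.

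A platform annotation named 1 gene for 13513 probe sets, several for 503 and none for 8730. Of the 13513, 13436 matched the TAIR10.1 gene table, which supplied current symbols and synonyms. Gene coordinates are not printed, since the deposited table names no genome build. Protein and promoter sequences and motifs were not analysed here.

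The members and lists were chosen with earlier results of these data known. The rule for named genes took called members, of which there were 0, the largest uncalled differences and the brightest members (here the same gene), and called genes of related lists. With 0 calls there, every gene of the related lists with a probe set of its own is given instead, chosen after values were seen. CCT2 is excepted, since its symbol stands for another gene. The synonyms and chromosome neighbours were also added then. Alternatives were another or no normalization, no or a stricter filter, an added offset, other variance priors, a replicate block, leaving out each array and the methods' t-test.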

Additional observations from a re-analysis of the deposited data

How the results depend on the processing

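EMB2786 was not called under any of the 12 alternative limma settings (adjusted p from 0.407 to 0.931), and the counts of called members and of called related genes stayed at 0 in these settings and in the methods' t-test. Its log2 change was negative in 11 of the 12, and 0.33 without further normalization, against -0.42 with median centring. The filters, the variance priors and the replicate block cannot move this change, which stayed at -0.26 there. Those settings therefore say nothing about its sign. Leaving out each array gave -0.40 to -0.10. In those fits the lone array of a group is assumed to vary like the other group. Relative to the median of all probe sets it ranged from -0.38 to -0.12. Over all probe sets the 828 calls became 1409 with median centring, 381 with a prior without trend and 155 to 1762 when arrays were left out (209 and 155 without the first and second control array, 1762 without the second induced array). The methods' t-test gave 396 at their threshold of 0.2 and 2 at 0.05. The replicate numbers are not stated to mark a shared batch. Same-numbered arrays deviated together (r = 0.31 across probe sets), and a fit with a replicate block called 2583 probe sets, while EMB2786 had a limma adjusted p of 0.528. Signs of related genes also turned. Without further normalization SEC was at 0.40, PRL at 0.10 and HTR12 at 0.70. With each array left out in turn, LIS ranged from -0.26 to 0.60, TTN9 from -0.18 to 1.79, HTR12 from -0.28 to 0.19, PRL from -0.83 to -0.18, FAC1 from -1.02 to -0.040, GR from -0.72 to -0.38, SEC from -0.24 to -0.090 and KEU from 0.82 to 1.09. The lowest values of LIS, PRL, FAC1, GR and SEC came without induced replicate 2 and those of TTN9 and HTR12 without control replicate 1. For KEU the limma adjusted p ranged from 0.0606 with the block to 0.412 without control replicate 1. The causes were not tested.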
